A study of Mus musculus with 12 samples.

Results

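The interferon regulatory factors are transcription factors that share a DNA-binding domain for GAAA-type sites in interferon and interferon-stimulated genes. The genes described here were the 8 rows whose mouse Ensembl identifier carries the symbol Irf1, Irf2, Irf3, Irf4, Irf5, Irf7, Irf8 or Irf9. They were matched by name and not by a cutoff on any measured value, but with earlier results of these data known. They are 8 of 55487 gene identifiers in the count table, and all 8 were among the 15897 that passed the filter on low counts.

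IRF3, IRF5 and IRF7 wait in the cytoplasm until kinases downstream of nucleic acid sensors phosphorylate them, and they then induce interferon genes. Interferons signal through JAK kinases to STAT proteins, which join IRF9 to form ISGF3, the complex that switches on antiviral genes and Irf7 itself, while signals of interferon gamma induce Irf1. IRF2 competes with IRF1 for the same sites, and IRF4 and IRF8, which bind DNA weakly alone, act with partners such as PU.1 and the BATF and JUN proteins and are known in T cells for effector differentiation.

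RNA of whole cell preparations was sequenced from CD8+ T cells, the killer T cells, prepared from splenocytes of C57BL/6 mice, a standard inbred strain. There were 4 groups of 3 libraries: IL-12 with 80% TCM, IL-12 alone, IL-2 with 80% TCM, and IL-2 alone. IL-2 is a growth cytokine of T cells that signals through STAT5, IL-12 signals through STAT4, and every group received one of these cytokines, so that no group was without cytokine. A difference between IL-12 and IL-2 cells can therefore not be assigned to either cytokine. The labels do not spell out TCM, the series title speaks of tumor-like conditions, and no label gives the animals' age or sex, the time in culture or the cytokine dose.

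Of the 12 libraries, 10 held 19500568 to 26007717 gene counts, while IL-12 replicates 1 and 2 held 49638920 and 42349121 gene counts and their values carry less counting error. Levels are given as the deposited CPM, counts scaled by library size, and a gene is called higher or lower where its adjusted p lies under 0.05 in edgeR's quasi-likelihood test with Benjamini-Hochberg adjustment over the 15897 genes. Replicate 3 of both IL-2 groups stood apart from its group. Its counts differed from those of the other replicates with a chi-square per degree of freedom of 28.5 to 45.4, against 2.4 to 5.51 between the other replicate pairs, and Pkm, a glycolytic gene, reached 3928 to 3932 CPM there against 1095 to 1192 CPM in replicates 1 and 2 of those groups. The 9 CD8 T cell markers summed to 3796 to 5140 CPM in every library. Ms4a1 and Pax5, which mark B cells, stayed at or under 0.316 CPM, Csf1r at or under 0.0742 CPM and Siglech at or under 0.0433 CPM. The whole lists these genes belong to were not near 0. The 9 B cell markers summed to 7.28 to 11 CPM in the IL-12 groups and 18.5 to 22.7 CPM in the IL-2 groups. The 9 macrophage and monocyte markers came to 6.24 to 15.9 CPM and the 9 dendritic cell markers to 54.5 to 76.8 CPM. Summed lists of other lymphocytes were not near 0. The 6 NK cell markers moved with the cytokine and came to 22.1 to 28.2 CPM in IL-12 TCM cells, 30.6 to 33.1 CPM in IL-12 cells, 51.4 to 70.8 CPM in IL-2 TCM cells and 55.7 to 62.5 CPM in IL-2 cells. The 5 CD4 and regulatory T cell markers came to 44.6 to 48.6 CPM in IL-12 TCM cells, 31.6 to 33.2 CPM in IL-12 cells, 46.1 to 63.5 CPM in IL-2 TCM cells and 47.5 to 49.5 CPM in IL-2 cells. In that sum only IL-12 cells without TCM lay apart. The part of such cells in the results on the family was not tested. In bulk RNA, fewer cells of a type and less RNA per cell cannot be told apart.

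The promoters of 4 members are shown: Irf8, higher in IL-12 than in IL-2 cells, Irf7, lower in IL-12 than in IL-2 cells, and Irf1 and Irf2, the activator and its competitor. Irf1 was not called in any comparison of groups. Irf3, Irf4, Irf5 and Irf9 also carried calls but are not shown. The windows shown include every member window with a motif match. Each window runs from 250 bases before to 50 bases after a RefSeq start site in GRCm38.p6, 5′ to 3′ on the gene's strand, and capitals mark the matched motifs.

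Irf8 promoter: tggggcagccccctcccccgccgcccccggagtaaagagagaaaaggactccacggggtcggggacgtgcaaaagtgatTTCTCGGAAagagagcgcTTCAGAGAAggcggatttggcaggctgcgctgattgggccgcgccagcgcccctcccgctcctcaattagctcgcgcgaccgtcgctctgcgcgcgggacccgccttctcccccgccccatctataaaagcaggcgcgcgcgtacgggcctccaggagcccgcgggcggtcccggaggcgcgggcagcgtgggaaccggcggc
Irf7 promoter: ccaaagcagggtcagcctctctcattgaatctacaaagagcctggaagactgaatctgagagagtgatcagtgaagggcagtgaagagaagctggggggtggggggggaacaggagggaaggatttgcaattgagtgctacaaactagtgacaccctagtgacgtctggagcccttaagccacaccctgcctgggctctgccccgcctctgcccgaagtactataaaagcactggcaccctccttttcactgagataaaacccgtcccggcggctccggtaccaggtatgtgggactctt
Irf1 promoter: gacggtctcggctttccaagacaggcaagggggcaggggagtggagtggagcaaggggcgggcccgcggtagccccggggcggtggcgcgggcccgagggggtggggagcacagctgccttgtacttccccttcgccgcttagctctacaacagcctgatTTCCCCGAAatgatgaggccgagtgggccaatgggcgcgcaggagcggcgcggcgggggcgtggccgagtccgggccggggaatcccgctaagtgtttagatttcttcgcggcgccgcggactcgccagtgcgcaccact
Irf2 promoter: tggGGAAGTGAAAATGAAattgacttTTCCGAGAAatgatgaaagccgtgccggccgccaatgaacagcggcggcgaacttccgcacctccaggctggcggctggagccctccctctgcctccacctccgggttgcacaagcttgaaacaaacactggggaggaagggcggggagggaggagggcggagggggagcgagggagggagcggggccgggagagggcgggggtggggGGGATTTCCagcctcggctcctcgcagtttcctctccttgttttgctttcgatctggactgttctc

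The Irf8 window lies at chr8:120736108-120736407 on the plus strand, the Irf7 window at chr7:141266375-141266674 on the minus strand, the Irf1 window at chr11:53769764-53770063 on the plus strand and the Irf2 window at chr8:46739495-46739794 on the plus strand. The letters searched on both strands were TTCNNNGAA (GAS, the STAT site), GAAANNGAA (IRF tandem core), GGAANNGAA (ETS-IRF composite core) and GGGANTTCC (kappaB core). The Irf8 window held GAS matches at bases -171 to -163 and -153 to -145 from its start site, the Irf1 window held a GAS match at -90 to -82, and the Irf2 window held a GAS match at -224 to -216. In the Irf2 window the ETS-IRF match at -247 to -239 and the tandem match at -241 to -233 overlap, and a kappaB match lies at -16 to -8. The Irf7 window shown, and the windows of Irf3, Irf4, Irf5 and Irf9, held none of these letters, which says only that these letters are not in these windows. Irf1 and Irf8 each have a further window, not shown, with no match. Among all 32851 promoter windows, 8.3% held the GAS letters, 8.56% the tandem core, 8.24% the composite core and 1.68% the kappaB core.

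**Figure D1:**
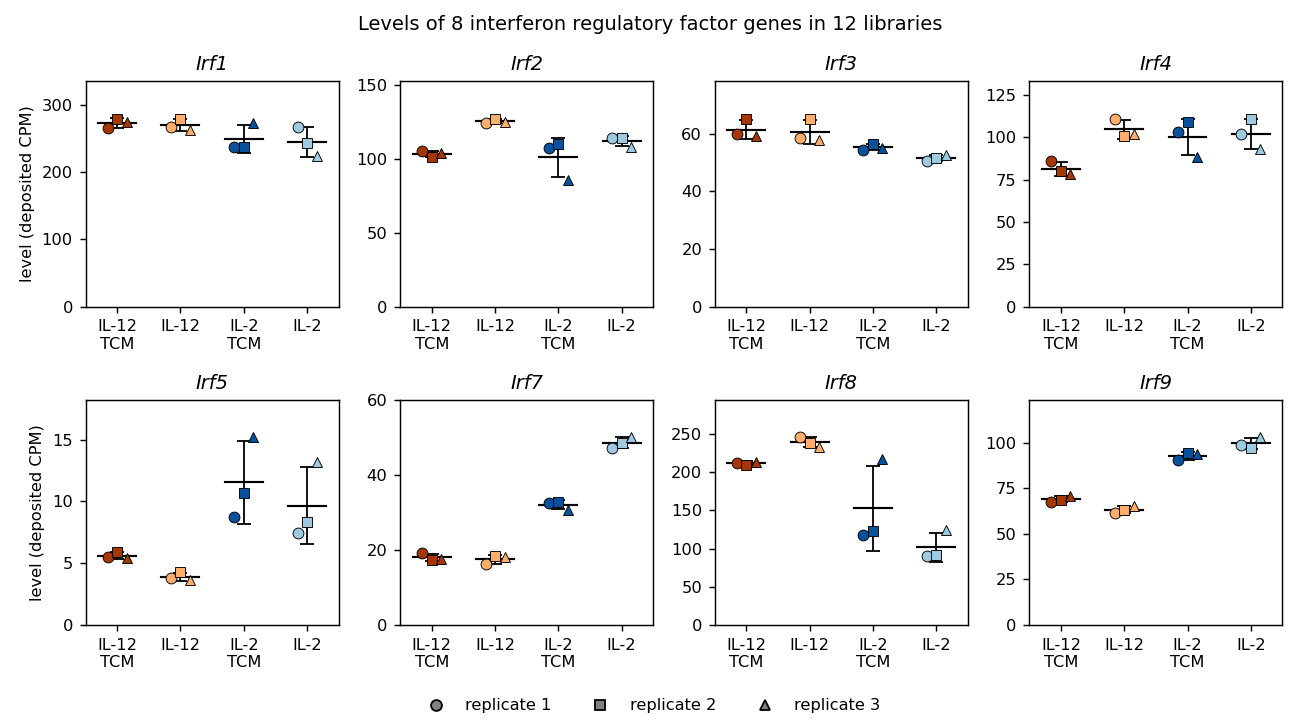
Level of each of the 8 genes in deposited CPM (vertical axis, from 0, scaled per gene) in the 4 groups (horizontal axis). Symbols are single libraries by replicate number, and lines with error bars are the mean ± SD of 3 libraries. Irf7 and Irf9 lie lower in both IL-12 groups than in both IL-2 groups, and replicate 3 of the IL-2 groups is the highest of its group for Irf5 and Irf8.

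Levels differ between genes per length. With the principal transcript of GENCODE vM21 as length, Irf1 was the most abundant member at 121 CPM per kilobase over the 12 libraries, followed by Irf8 at 61.9, Irf2 at 44.2, Irf9 at 33.0, Irf3 at 28.1, Irf4 at 20.4, Irf7 at 15.2 and Irf5 at 3.43 CPM per kilobase. With all annotated exon bases as length, Irf1 (65.3), Irf8 (25.0), Irf7 (7.7) and Irf5 (2.64 CPM per kilobase) kept their ranks, while the other 4 lay between 14.9 and 19.8 in another order. The members also varied to different degrees across the groups. The ratio of the highest to the lowest group mean was 2.96 for Irf5, 2.77 for Irf7, 2.35 for Irf8 and 1.58 for Irf9, against 1.12 for Irf1, 1.19 for Irf3, 1.24 for Irf2 and 1.29 for Irf4.

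The first question was how IL-12 cells differed from IL-2 cells. Without TCM, 5 of the 8 members changed: Irf8 and Irf3 were higher in IL-12 cells, and Irf7, Irf5 and Irf9 were lower. Across all genes tested, 45.1% were called in this comparison, 22.1% higher and 23.0% lower, so the count by itself is no finding about the family. With TCM present, 4 members were called and all were lower in IL-12 TCM cells: Irf5, Irf7, Irf9 and Irf4. The background there was 39.0% called, 19.5% higher and 19.4% lower. The median log2 fold change of the 8 members was 0.07 without TCM and -0.13 with TCM, beside -0.01 over all genes in both. These 2 comparisons share no library, but each shares its libraries with the TCM comparisons below. Under upper-quartile scaling the share of higher genes among all calls moved to 36.4% without TCM and 37.0% with TCM, against 49.0% and 50.2% under TMM scaling.

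The second question was what TCM changed under each cytokine. Within IL-12, TCM lowered Irf4 and Irf2, 2 of 8 members, where 29.0% of all genes were called, 14.8% higher and 14.2% lower. That count was 5 with a replicate block on the IL-2 libraries and without the third libraries of both IL-2 groups. The calls over all genes rose there too, from 4617 to 6678 and 7332. Within IL-2, TCM lowered Irf7, 1 of 8, where 14.5% of genes were called, 6.73% higher and 7.82% lower. With a replicate block on the IL-2 libraries, which assumes that equal numbers pair, 3 members and 4442 genes were called, against 2313 genes without it. Under that block Irf2 was lower too (-0.17, adjusted p = 0.022) and Irf8 higher (0.54, 5.8e-07). The members' median log2 fold change was 0.03 within IL-12 and -0.01 within IL-2, and that of all genes was 0.01 and 0.00. A test of the difference between both TCM effects called 1 member, Irf7, where 1.58% of all genes were called, 1.19% with a higher and 0.390% with a lower effect in IL-12. The block on the IL-2 libraries called 4 members and the fit without the third libraries 5. The calls over all genes rose there too, from 251 to 1668 and 2105.

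**Figure D2:**
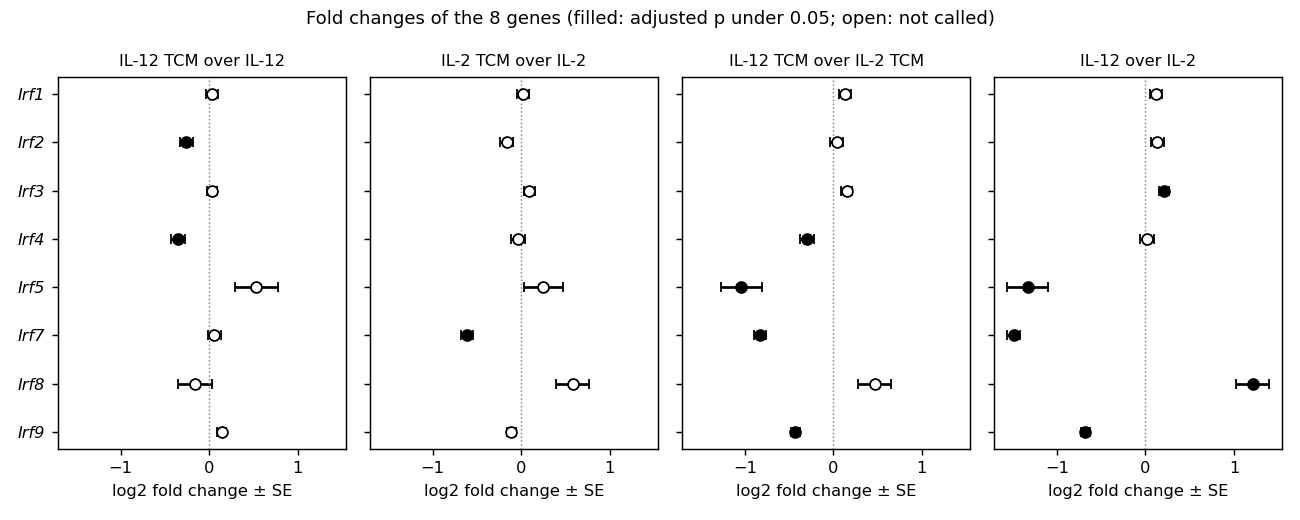
Log2 fold change ± SE (horizontal axis) of the 8 genes (rows) in 4 comparisons, each panel titled with the group on top of the ratio first. Filled points have an adjusted p under 0.05 in edgeR's quasi-likelihood test and open points do not. Irf7 and Irf5 lie furthest below 0 in both comparisons of the cytokines, and Irf8 lies furthest above 0 without TCM.

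Among the members that induce interferon genes, Irf7, which amplifies type I interferon production, was called in every comparison except that of TCM within IL-12. It stood at 19.2, 17.4 and 17.5 CPM in IL-12 TCM cells, 16.2, 18.4 and 18.1 CPM in IL-12 cells, 32.5, 32.9 and 30.7 CPM in IL-2 TCM cells and 47.2, 48.5 and 50.1 CPM in IL-2 cells. The IL-12 groups overlap each other and lie lowest, IL-2 TCM lies above them, and IL-2 lies highest without overlap. IL-12 cells had 2.82-fold less Irf7 than IL-2 cells (log2 fold change -1.49, SE 0.071, adjusted p = 3.0e-09), and IL-12 TCM cells had 1.78-fold less than IL-2 TCM cells (log2 fold change -0.83, SE 0.072, adjusted p = 1.0e-06). TCM lowered Irf7 1.52-fold within IL-2 (log2 fold change -0.61, SE 0.069, adjusted p = 0.00015). Within IL-12 its TCM effect was 0.06 on the log2 scale (SE 0.073, adjusted p = 0.6). The effects differed by 0.67 on the log2 scale (SE 0.10, adjusted p = 0.0057), and Irf7 kept that call in all 21 alternatives that could be fitted, with adjusted p up to 0.029.

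Irf5, known mainly from macrophages and B cells, where it acts downstream of Toll-like receptors, was the least abundant member. It measured 5.54, 5.91 and 5.4 CPM in IL-12 TCM cells, 3.8, 4.28 and 3.63 CPM in IL-12 cells, 8.7, 10.7 and 15.2 CPM in IL-2 TCM cells and 7.48, 8.3 and 13.2 CPM in IL-2 cells. These values rest on 72 to 385 counts per library, the 2 IL-2 groups overlap, and both lie above both IL-12 groups. IL-12 cells had 2.51-fold less Irf5 than IL-2 cells (log2 fold change -1.33, SE 0.23, adjusted p = 0.00045), and IL-12 TCM cells had 2.06-fold less than IL-2 TCM cells (-1.04, SE 0.23, adjusted p = 0.0029). Both calls held without the third libraries of the IL-2 groups. The TCM effect within IL-12, 0.53 (SE 0.24, adjusted p = 0.11), was not called although the groups did not overlap. It was called in 6 of 22 alternatives. Among them were only the IL-12 groups (adjusted p = 0.0015) and the fits without the third libraries of both IL-2 groups (0.0013), IL-2 replicate 3 (0.044) or IL-2 TCM replicate 3 (0.047). In the annotation 14.1% of the exon bases of Irf5 overlap Tnpo3 on the opposite strand, a gene at 102 to 137 CPM, and whether strand was used in counting is not stated, so the Irf5 level is uncertain. Csf1r, Adgre1 and Ms4a1 did not exceed 0.316 CPM in any library, while the summed B cell markers, mostly Cd79b, were 9.15 to 11.0 CPM in IL-12 TCM cells, 7.28 to 9.06 CPM in IL-12 cells, 18.5 to 21.3 CPM in IL-2 TCM cells and 19.3 to 22.7 CPM in IL-2 cells. The 9 macrophage and monocyte markers summed to 9.22 to 10.4 CPM in IL-12 TCM cells, 6.24 to 7.96 CPM in IL-12 cells, 9.98 to 15.9 CPM in IL-2 TCM cells and 8.4 to 11 CPM in IL-2 cells. Most of that sum was Cd68, a lysosomal gene, and it was highest in replicate 3 of each IL-2 group, where Irf5 was highest too. The part of such cells in the Irf5 result was not tested.

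Irf3, present in resting cells and activated by sensors, was called in 1 comparison. It had 59.8, 65.1 and 59.0 CPM in IL-12 TCM cells, 58.4, 65.2 and 57.9 CPM in IL-12 cells, 54.4, 56.3 and 55.1 CPM in IL-2 TCM cells and 50.6, 51.5 and 52.7 CPM in IL-2 cells. The IL-12 groups overlap and lie above IL-2 TCM, which lies above IL-2. The 1.16-fold higher level in IL-12 than in IL-2 cells was called (log2 fold change 0.21, SE 0.059, adjusted p = 0.011), but not under upper-quartile scaling, where it was 0.13 with adjusted p = 0.091. The other Irf3 differences were not called, at 0.15 for IL-12 TCM over IL-2 TCM (adjusted p = 0.06), 0.03 for TCM within IL-12 (0.7) and 0.09 for TCM within IL-2 (0.33). The first of these was called at adjusted p = 0.039 without IL-12 replicate 2.

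The genes that sense nucleic acids and activate IRF3, IRF5 and IRF7 moved in both directions. Of 18 tested, 5 were higher and 6 lower in IL-12 than in IL-2 cells, with a median log2 fold change of -0.08 beside -0.01 over all genes. With TCM 6 were higher and 5 lower. The shares of all genes were 22.1% higher and 23.0% lower, and with TCM 19.5% and 19.4%. Myd88, the adaptor of most Toll-like receptors, was 2.6-fold higher in IL-12 cells (log2 fold change 1.38, adjusted p = 8.6e-09) and 2.94-fold higher in IL-12 TCM over IL-2 TCM cells (1.56, 2.1e-09). Ifih1, the RNA sensor MDA5, was lower, with log2 fold changes of -1.20 without TCM and -0.67 with TCM, as was Ikbke, a kinase of IRF3 and IRF7, with -0.52 and -0.75. Rigi, the RNA sensor RIG-I, was lower without TCM (-0.59, adjusted p = 2.3e-06), and Traf3, an adaptor ligase of the pathway, was higher with TCM (0.43, 0.0013). Tbk1, the other kinase of IRF3, differed by 0.18 (adjusted p = 0.026) and 0.17 (0.036), calls that were lost in 5 and 13 of 22 alternatives, upper-quartile scaling among them. Within IL-12, TCM raised 4 of the 18, and 14.8% of all genes. Among the 4 were Rigi (0.48, adjusted p = 7.6e-05), Ticam1, the adaptor TRIF (0.50, 0.016), and Irak4, a MyD88 kinase (0.20, 0.023). The Ticam1 call was lost without IL-12 replicate 1 or IL-12 TCM replicate 2, and that of Irak4 in 5 alternatives, with adjusted p up to 0.061 and 0.16. Within IL-2, where 14.5% of all genes were called, edgeR called none of the 18. Of these, 4 had an unadjusted p under 0.05, while DESeq2 called 1 and limma called 0. With a replicate block on the IL-2 libraries 2 were higher and 3 lower.

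Irf9, the DNA-binding subunit of ISGF3, had 67.5, 68.8 and 70.6 CPM in IL-12 TCM cells, 61.6, 63.2 and 65.0 CPM in IL-12 cells, 90.4, 94.5 and 93.5 CPM in IL-2 TCM cells and 98.5, 97.3 and 103 CPM in IL-2 cells. All 4 groups lay apart, in the order IL-12, IL-12 TCM, IL-2 TCM and IL-2 from low to high. Irf9 was 1.6-fold lower in IL-12 than in IL-2 cells (log2 fold change -0.68, SE 0.051, adjusted p = 2.7e-07) and 1.34-fold lower in IL-12 TCM than in IL-2 TCM cells (-0.43, SE 0.051, adjusted p = 2.1e-05). Its TCM effects of 0.14 within IL-12 (adjusted p = 0.055) and -0.11 within IL-2 (0.17) were not called. Their difference, 0.25 (SE 0.072), was not called either (adjusted p = 0.11), although DESeq2 gave 0.049 and the fit without the third libraries of both IL-2 groups 0.037. The TCM effect on Irf9 within IL-12 was called in 5 of 22 alternatives. Among them were upper-quartile scaling (0.17, adjusted p = 0.03), only the IL-12 groups (0.14, 0.013) and the fit without the third libraries of both IL-2 groups (0.13, 0.016). A stretch of 2.3% of the exon bases of Irf9 is shared with Rnf31 on the same strand, and Irf1, Irf3 and Irf7 share 3.4%, 2.6% and 1.2% of theirs with neighbours.

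The genes that carry the interferon signal to IRF9 and IRF1 were mostly lower with IL-12. Of the 9 receptor, JAK and STAT genes, 7 were lower and 1 higher in IL-12 than in IL-2 cells, with a median log2 fold change of -0.45 beside -0.01 over all genes. The shares of all genes were 23.0% lower and 22.1% higher, and with TCM 19.4% and 19.5%. Ifngr2, a chain of the interferon gamma receptor, averaged 3.63 ± 0.55 CPM in IL-12 cells and 17.2 ± 0.554 CPM in IL-2 cells (SD, n = 3 each), a log2 fold change of -2.25 (adjusted p = 5.5e-09). Ifnar1 and Ifnar2, the chains of the type I interferon receptor, were lower, with log2 fold changes of -0.72 (adjusted p = 1.4e-07) and -1.01 (9.0e-08), as was Stat2 with -0.53 (0.00092). With TCM, 5 of the 9 were lower in IL-12 TCM than in IL-2 TCM cells, led by Ifngr2 (-2.38), Ifnar2 (-1.07), Ifnar1 (-0.71) and Jak2 (-0.32), while Stat2 (-0.26, adjusted p = 0.055) was not called. That count was 8 under upper-quartile scaling and 9 with a replicate block on the IL-2 libraries.

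Within IL-12, TCM raised 3 of the 9, among them Stat2 (0.57, adjusted p = 0.0012) and Jak2 (0.14, 0.041), and lowered Jak1 (-0.22, 0.0071). The Jak2 call was lost in 12 of 22 alternatives. Of all genes TCM raised 14.8% and lowered 14.2% within IL-12, and 6.73% and 7.82% within IL-2. Within IL-2, TCM raised 1 of the 9, Ifngr1 (0.31, adjusted p = 0.041), a call lost in 13 alternatives (2 were raised and 1 lowered with a replicate block on the IL-2 libraries or without the third libraries), and Stat2 missed the threshold (0.30, 0.058). No TCM effect on these 9 genes was called as different between the cytokines in edgeR or limma, 1 had an unadjusted p under 0.05, and DESeq2 called 1. With a replicate block on the IL-2 libraries edgeR called 1 with a higher and 1 with a lower effect in IL-12, and without the third libraries 1 with a lower effect.

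The antiviral genes that ISGF3 controls went both ways. Of 24 tested, 16 were lower and 4 higher in IL-12 than in IL-2 cells, where 23.0% of all genes were lower and 22.1% higher. Their median log2 fold change was -0.85 beside -0.01 over all genes. Mx1, a GTPase that blocks virus replication, averaged 8.71 ± 0.631 CPM in IL-12 cells and 23.4 ± 7.93 CPM in IL-2 cells (SD, n = 3 each; log2 fold change -1.45, adjusted p = 7.1e-05), and Cmpk2, a nucleotide kinase, fell by 1.99 on the log2 scale (adjusted p = 3.8e-07). Usp18, which removes ISG15 from proteins and shuts off the type I interferon receptor, went the other way at 205, 198 and 198 CPM in IL-12 cells and 21.6, 23.7 and 26.7 CPM in IL-2 cells (8.22-fold, adjusted p = 1.1e-11). Ifi44 was 8.11-fold higher (adjusted p = 4.9e-09).

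With TCM present the count was 9 lower and 7 higher of 24, with a median of -0.34, and Usp18 (3.13), Ifi44 (2.7), Mx1 (-1.55) and Isg15, the ubiquitin-like modifier (1.14), led it on the log2 scale. In that comparison 19.4% of all genes were lower and 19.5% higher. Of all genes TCM raised 14.8% and lowered 14.2% within IL-12, and 6.73% and 7.82% within IL-2. Within IL-12, TCM raised 7 of the 24 and lowered 2. Ifi44 fell by 1.42 (adjusted p = 1.9e-05), while Isg15 (0.80, 0.0011), Dhx58, the sensor LGP2 (0.77, 0.029) and Ifit1, which binds viral RNA (0.69, 0.004), rose, the Dhx58 call being lost without any single IL-12 or IL-12 TCM library. Within IL-2, TCM lowered 6 and raised 1: Cmpk2 (-0.97, adjusted p = 0.0012), Herc6 (-0.76, 0.00055) and Xaf1 (-0.52, 0.0012) fell and Usp18 (0.35, 0.012) rose. The count within IL-12 was 11 raised and 4 lowered with only the IL-12 groups or without the third IL-2 libraries. The lowered count within IL-2 was 12 with a replicate block on the IL-2 libraries, and Usp18 lost its call when only those groups were fitted (0.12). The TCM effect was called as different between the cytokines for 4 of the 24, each more positive in IL-12, and for 251 of all genes (1.58%). With a replicate block on the IL-2 libraries the count was 11 more positive and 1 more negative, with 1668 of all genes called. Without the third libraries it was 10 and 2, with 2105 of all genes called. In the fit of all libraries the median difference was 0.54 on the log2 scale beside 0.00 over all genes.

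Irf1, the activator induced by interferon gamma, was called in none of the 4 comparisons of groups. It had 266, 280 and 275 CPM in IL-12 TCM cells, 267, 280 and 263 CPM in IL-12 cells, 238, 238 and 273 CPM in IL-2 TCM cells and 268, 243 and 224 CPM in IL-2 cells, and every pair of neighbours in order of level overlaps. Its log2 fold changes were 0.12 for IL-12 over IL-2 (SE 0.069, adjusted p = 0.17), 0.13 for IL-12 TCM over IL-2 TCM (0.15), 0.03 for TCM within IL-12 (0.75) and 0.02 for TCM within IL-2 (0.87). Irf1 was called higher in IL-12 at 0.20 without IL-2 replicate 1 (adjusted p = 0.039), and higher in IL-12 TCM at 0.19 without IL-2 TCM replicate 3 (0.029). For IL-12 TCM over IL-2 TCM, 2 of 22 alternatives called Irf1. The other call, with adjusted p = 0.0015, did not come from leaving out a single library. Ifng, the gene of interferon gamma itself, stood at 77.0, 87.1 and 85.3 CPM in IL-12 TCM cells, 67.1, 68.9 and 59.0 CPM in IL-12 cells, 1.89, 1.37 and 1.89 CPM in IL-2 TCM cells and 1.32, 2.23 and 1.04 CPM in IL-2 cells. That is 41.5-fold more in IL-12 than in IL-2 cells (adjusted p = 3.7e-11) and 48.7-fold more in IL-12 TCM than in IL-2 TCM cells (1.4e-11), while of the 7 interferon genes listed only Ifng passed the filter on low counts. Its TCM effect was 0.37 within IL-12 (adjusted p = 0.027, a call lost in 8 of 22 alternatives) and 0.14 within IL-2 (0.75).

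Irf2, the competitor of IRF1, fell with TCM under IL-12. It had 105, 101 and 104 CPM in IL-12 TCM cells, 124, 127 and 125 CPM in IL-12 cells, 107, 110 and 85.7 CPM in IL-2 TCM cells and 114, 114 and 108 CPM in IL-2 cells. The TCM groups overlap each other and have the lowest means, IL-2 overlaps IL-2 TCM but not IL-12 TCM, and IL-12 lies above all others. TCM lowered Irf2 1.19-fold within IL-12 (log2 fold change -0.26, SE 0.073, adjusted p = 0.019), a call lost without IL-12 replicate 2 (-0.26, 0.056), IL-12 replicate 3 (-0.26, 0.054), IL-12 TCM replicate 2 (-0.25, 0.069) or IL-12 TCM replicate 3 (-0.27, 0.053). Within IL-2 the TCM effect of -0.16 was not called (adjusted p = 0.16). With a replicate block on the IL-2 libraries, which assumes that equal numbers pair, it was -0.17 with adjusted p = 0.022. IL-12 over IL-2 gave 0.14 (adjusted p = 0.15) without TCM, called at 0.019 without IL-2 TCM replicate 3. With TCM it gave 0.04 (0.71), a direction that turned to -0.04 under upper-quartile scaling.

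Genes that IRF1 is known to drive were called in both directions. Of 24 tested, 7 were higher and 8 lower in IL-12 than in IL-2 cells, with a median log2 fold change of 0.03 beside -0.01 over all genes. With TCM 11 were higher and 8 lower. The shares of all genes were 22.1% higher and 23.0% lower, and with TCM 19.5% and 19.4%. Gbp2, an interferon-inducible GTPase, was 3.81-fold higher in IL-12 than in IL-2 cells (adjusted p = 2.5e-09), Gbp5 2.46-fold higher (1.8e-08), and Cxcl10, a T cell chemokine, 7.08-fold higher at 10.1 CPM (3.5e-07). Iigp1, another such GTPase, averaged 94.0 ± 2.56 CPM in IL-12 cells and 240 ± 18.0 CPM in IL-2 cells (SD, n = 3 each), 2.6-fold lower (adjusted p = 4.8e-09). With TCM the same GTPases led, Gbp2 at 2.19, Iigp1 at -1.26, Gbp3 at 1.08 and Gbp5 at 0.96 on the log2 scale. Of all genes TCM raised 14.8% and lowered 14.2% within IL-12, and 6.73% and 7.82% within IL-2. Within IL-12, TCM raised 9 of the 24 and lowered 3, with Cxcl10 (-1.88), Il12rb1, a chain of the IL-12 receptor (0.74), Socs1, a JAK inhibitor (0.68), and Iigp1 (0.49) in front. Within IL-2 it raised 5 and lowered 4, with Socs1 (0.61), Gbp2 (-0.52), Igtp, also a GTPase (0.45), and Psmb10, an immunoproteasome subunit (-0.42), in front. Psmb10 lost this call when only those groups were fitted (adjusted p = 0.056). The raised count within IL-2 was 8 with a replicate block on the IL-2 libraries, 9 without the third libraries and 3 with only those groups, and the lowered count was 2 with only those groups. The lowered count within IL-12 was 6 with only the IL-12 groups or without the third IL-2 libraries, and 1 under upper-quartile scaling. The difference between both TCM effects was called by edgeR and limma for none of the 24, 5 had an unadjusted p under 0.05, and DESeq2 called 2. In edgeR 3 higher and 1 lower were called with a replicate block on the IL-2 libraries, and 3 higher and 2 lower without the third libraries.

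**Figure D3:**
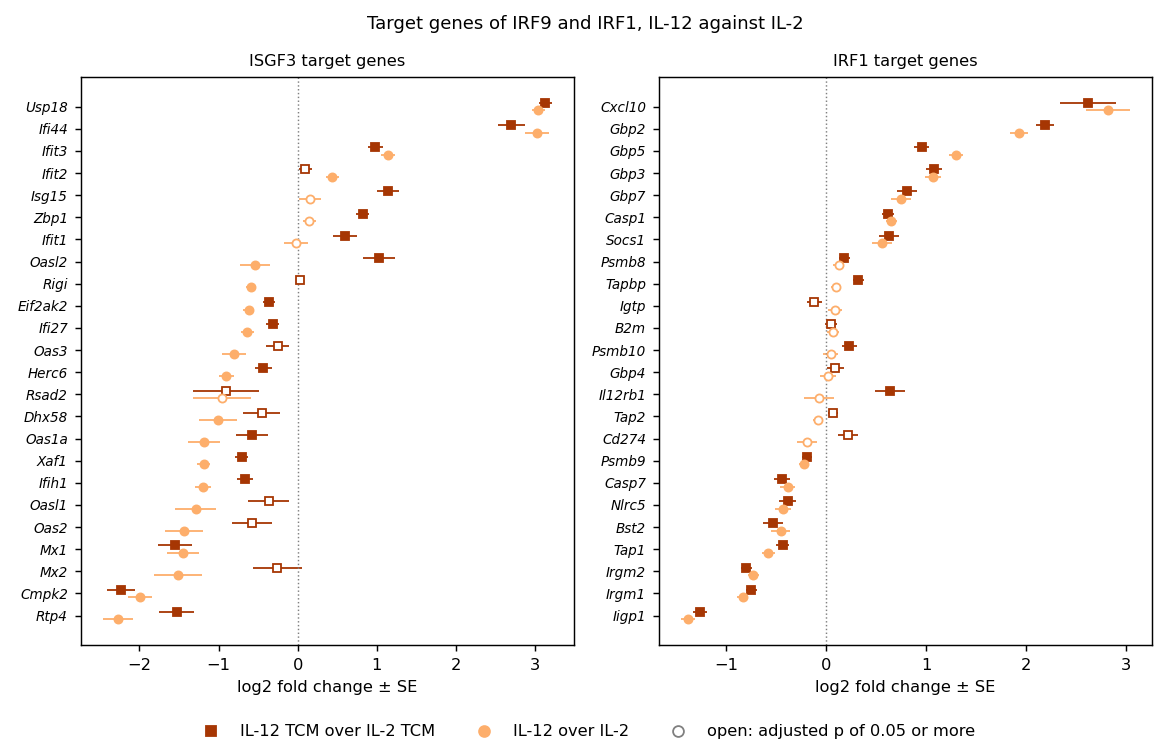
Log2 fold change ± SE (horizontal axis) of the tested target genes (rows) of ISGF3, the complex of IRF9 (left), and of IRF1 (right), for IL-12 TCM over IL-2 TCM (squares) and IL-12 over IL-2 (circles). Filled symbols have an adjusted p under 0.05 and open ones do not. Of the ISGF3 targets, 16 of 24 were called lower without TCM and 9 with TCM, while IRF1 targets lie on both sides of 0.

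Irf8, which directs myeloid and B cell differentiation and is also known from effector CD8 T cells, was the member most above its IL-2 level in IL-12 cells. It had 212, 209 and 214 CPM in IL-12 TCM cells, 246, 238 and 233 CPM in IL-12 cells, 118, 123 and 217 CPM in IL-2 TCM cells and 90.2, 91.3 and 124 CPM in IL-2 cells. IL-12 lies highest and apart, and IL-12 TCM overlaps IL-2 TCM only through replicate 3 of that group, which also lifts the IL-2 TCM mean to 153 ± 55.9 CPM (SD, n = 3). IL-12 cells had 2.31-fold more Irf8 than IL-2 cells (log2 fold change 1.21, SE 0.19, adjusted p = 0.00026), a call kept in all 22 alternatives. IL-12 TCM over IL-2 TCM gave 0.47 (SE 0.19, adjusted p = 0.07), and without IL-2 TCM replicate 3 it gave 0.80 with adjusted p = 1.7e-05. That difference was also called without IL-2 replicate 3 (adjusted p = 0.046), without the third libraries of both IL-2 groups (0.80, 7.0e-15), without the filter (7.9e-10), in limma (0.033), and with a replicate block over all libraries (0.016) or on the IL-2 libraries (0.52, 9.6e-08).

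The TCM effect on Irf8 within IL-2 was 0.58 (SE 0.19, adjusted p = 0.061), higher in each same-numbered pair of libraries. With a replicate block on the IL-2 libraries it was 0.54 with adjusted p = 5.8e-07, and without the third libraries 0.41 with 5.5e-07. Leaving out single libraries gave 0.24 (adjusted p = 0.12) without IL-2 TCM replicate 3, and the effect was called without IL-2 replicate 3 (0.019), IL-2 TCM replicate 1 (0.022) or IL-2 TCM replicate 2 (0.031). Within IL-12 it was -0.16 (adjusted p = 0.58), and the groups did not overlap. The spread of the IL-2 groups enters that test, and with only both IL-12 groups fitted the same effect had adjusted p = 0.0013. The difference between both effects, -0.74 (SE 0.27), was not called (adjusted p = 0.21), while the fit without the third libraries of both IL-2 groups gave -0.58 with 1.5e-07. Of the markers of cells rich in Irf8, Csf1r, Siglech, Clec9a and Ms4a1 did not exceed 0.316 CPM in any library, and Cd209a was at 0. The whole lists were not near 0. The 9 B cell markers summed to 7.28 to 11 CPM in the IL-12 groups and 18.5 to 22.7 CPM in the IL-2 groups, and the 9 macrophage and monocyte markers to 6.24 to 15.9 CPM. Xcr1, a dendritic cell chemokine receptor, was higher with IL-12, at 8.04, 10.5 and 7.15 CPM in IL-12 TCM cells, 10.4, 11.2 and 9.57 CPM in IL-12 cells, 0.677, 0.853 and 0.276 CPM in IL-2 TCM cells and 1.32, 1.94 and 3.07 CPM in IL-2 cells. The 9 dendritic cell markers summed to 54.5 to 60.7 CPM in IL-12 TCM cells, 58.6 to 65.5 CPM in IL-12 cells, 64.6 to 76.8 CPM in IL-2 TCM cells and 66.3 to 75.3 CPM in IL-2 cells. Of the 5 tested, 2 were higher and 2 lower in IL-12 than in IL-2 cells, and with TCM 3 were higher and 2 lower. The shares of all genes were 22.1% higher and 23.0% lower, and with TCM 19.5% and 19.4%. Bst2, in this list, is also among the IRF1 target genes. The part of Xcr1-bearing cells, or of other cells that these lists mark, in the Irf8 result was not tested.

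Irf4, which T cell receptor signals induce, was lowest with IL-12 and TCM together. It had 85.8, 80.1 and 78.1 CPM in IL-12 TCM cells, 111, 101 and 102 CPM in IL-12 cells, 103, 109 and 88.5 CPM in IL-2 TCM cells and 102, 111 and 93.3 CPM in IL-2 cells. IL-12 TCM lies below every other library, and the other 3 groups overlap. TCM lowered Irf4 1.27-fold within IL-12 (log2 fold change -0.35, SE 0.078, adjusted p = 0.005), and IL-12 TCM cells had 1.23-fold less than IL-2 TCM cells (-0.30, SE 0.078, adjusted p = 0.0085), calls that held in all 22 alternatives. Within IL-2 the TCM effect was -0.04 (adjusted p = 0.81). The difference between both TCM effects, -0.32 (SE 0.11), was not called (adjusted p = 0.19), but it was called without IL-2 TCM replicate 3 (-0.41, 0.02), without the third libraries of both IL-2 groups (-0.35, 0.0019) and with a replicate block on the IL-2 libraries (-0.31, 0.0072). IL-12 over IL-2 cells gave 0.02 (adjusted p = 0.88), which upper-quartile scaling turned to -0.06.

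Of the 15 partners and inducers of IRF4 and IRF8, 6 were higher and 3 lower in IL-12 than in IL-2 cells, where 22.1% of all genes were higher and 23.0% lower. Their median log2 fold change was 0.13 beside -0.01 over all genes. Jun, which joins BATF and IRF4 on composite sites, stood at 255, 257 and 251 CPM in IL-12 cells and 30.9, 24.8 and 27.2 CPM in IL-2 cells (9.07-fold higher, adjusted p = 5.4e-08). Junb (1.10, adjusted p = 0.00027), Bcl6, a repressor of effector genes (1.03, 4.5e-07), and Relb, an NF-kappaB subunit (0.85, 8.5e-05), were higher too. Batf itself was not called, at 42.4 ± 3.73 CPM in IL-12 cells and 38.3 ± 6.52 CPM in IL-2 cells (SD, n = 3 each; log2 fold change 0.13, adjusted p = 0.43). Spi1, which encodes PU.1, averaged 0.36 ± 0.166 CPM in IL-12 cells and 0.78 ± 0.118 CPM in IL-2 cells (SD, n = 3 each; -1.08, adjusted p = 0.019, lost in 4 of 22 alternatives), a level near 0.

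With TCM present 8 of the 15 were higher and 2 lower in IL-12 TCM than in IL-2 TCM cells, led by Jun (3.46), Nfatc2, a calcium-driven factor (1.15), Prdm1, the repressor BLIMP1 (1.03, adjusted p = 0.04, lost in 9 of 22 alternatives), and Rel, an NF-kappaB subunit (-0.95). Batf (0.14, adjusted p = 0.42) and Spi1 (-0.72, 0.14) were not called. In that comparison 19.5% of all genes were higher and 19.4% lower. Of all genes TCM raised 14.8% and lowered 14.2% within IL-12, and 6.73% and 7.82% within IL-2. Within IL-12, TCM raised 4 of the 15 and lowered 1. Batf3, a BATF relative, rose by 0.85 (adjusted p = 0.00076), Jund by 0.58 and Nfatc2 by 0.33, Relb fell by 0.61, and Batf gave -0.07 (0.71). Within IL-2, TCM raised Bcl6 by 0.98 (adjusted p = 1.9e-05) and Jund by 0.40 and lowered 1 of the 15, Nfatc1 (-0.21, 0.018, lost in 3 alternatives), and Batf gave -0.08 (0.72). The lowered count within IL-2 was 4 with a replicate block on the IL-2 libraries, 5 without the third libraries and 0 with only the IL-2 groups. The raised count within IL-12 was 7 with only the IL-12 groups or without the third IL-2 libraries. The difference between both TCM effects was called for Nfatc2 as higher and Bcl6 as lower in IL-12, and 4 were higher with that block or without the third libraries.

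**Figure D4:**
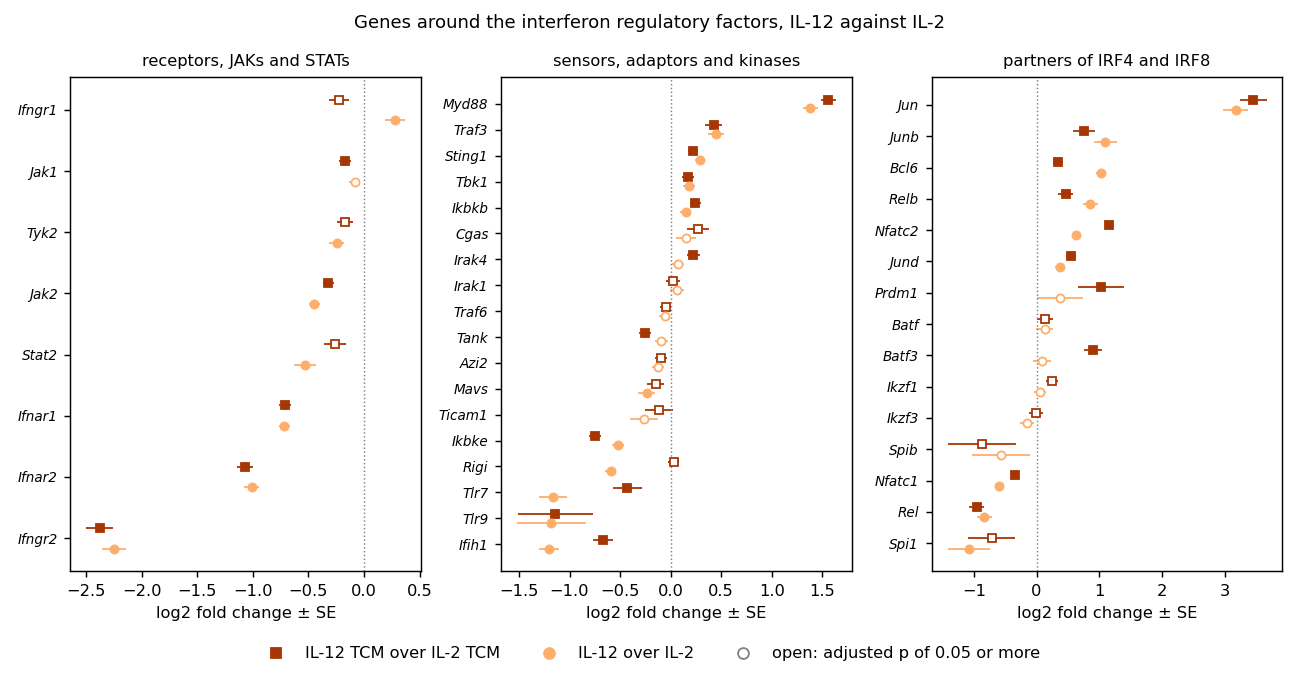
Log2 fold change ± SE (horizontal axis) of the genes (rows) reported here that carry interferon signals (left), activate IRF3, IRF5 and IRF7 (middle) or act with IRF4 and IRF8 (right), for IL-12 TCM over IL-2 TCM (squares) and IL-12 over IL-2 (circles). Filled symbols have an adjusted p under 0.05 and open ones do not. Ifngr2, Ifnar2 and Ifnar1 lie below 0 and Jun and Myd88 above 0 in both comparisons.

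Corepressors and ubiquitin ligases act on the proteins of the family. Of 10 tested, 2 were higher and 1 lower in IL-12 than in IL-2 cells, with a median of 0.09 beside -0.01 over all genes. The shares of all genes were 22.1% higher and 23.0% lower, and with TCM 19.5% and 19.4%. Of all genes TCM raised 14.8% and lowered 14.2% within IL-12, and 6.73% and 7.82% within IL-2. Stub1, a ligase (0.33, adjusted p = 0.0076), was among the higher, and Trim30a, an interferon-induced ligase (-0.39, 0.00051), was lower. With TCM, 3 were higher, among them Trim21, a ligase of IRF3 and IRF7 (0.46, 0.00011), and Irf2bpl (0.29, 0.0012). Within IL-12, TCM raised Trim21 (0.26, 0.011), Trim30a (0.25, 0.016) and Irf2bpl (0.23, 0.0091), calls lost in 2, 3 and 3 alternatives. Within IL-2 it lowered Rbck1, a subunit of the linear ubiquitin ligase (-0.25, 0.018, lost in 4). Within IL-12, 3 of the 10 were lowered with only the IL-12 groups or without the third IL-2 libraries. With a replicate block on the IL-2 libraries 4 were higher in IL-12 than in IL-2 cells, and within IL-2 1 was raised and 2 lowered.

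Each member's pattern over the 12 libraries was compared with those of other genes averaging 10 CPM or more, as Pearson's r of log2(CPM + 1). These r values are descriptions, since the libraries share treatment, depth and scaling. Irf7 was most like Grn (0.987), Zfp994 (0.987) and Xaf1 (0.985), Irf9 like Parp11 (0.99), Rasgrp1 (0.988) and Gata3 (0.987), and Irf5 like Letm2 (0.993), Lancl1 (0.99) and Ascc1 (0.986). Irf8 was most like Cyb5r3 (0.969), Tmem43 (0.967) and Junb (0.964), Irf4 like Coa5 (0.956), Cct4 (0.953) and Ubqln2 (0.945), and Irf2 like Dck (0.979), Slc44a1 (0.978) and Cwf19l1 (0.974). Irf3 (Vmp1 0.924, Sirt7 0.92, Rab18 0.92) and Irf1 (Btf3 0.917, Mthfd2 0.914, Gemin8 0.898), which varied least, had the lowest values.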

How the data were processed

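Total RNA libraries were made with a modified directional NEBNext Ultra II protocol, per the labels, whose extraction text speaks of bortezomib-treated livers that no sample label names. The authors counted aligned reads per gene. STAR 2.7.7a is named among the tools, and so are edgeR, without a version, and the human build GRCh38, although the identifiers are those of mouse, per the submitters' processing notes. The counting program, its strand setting and the annotation are not given in the sources used here. Files per library hold a deposited signal per gene, equal to the count divided by 1 constant per library, which is CPM on TMM-scaled library sizes.

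Genes with few counts were dropped by filterByExpr with a minimum count of 10 and a minimum total of 15. Then 1 mean per group was fitted over all 12 libraries in edgeR 4.0.16 under R 4.3.3 (TMM, quasi-likelihood F test, 8 residual degrees of freedom), with 5 contrasts and a threshold of 0.05. Libraries are grouped by the labels' treatment. The labels do not say that libraries come from separate animals or cultures, so p-values measure the spread between these libraries, which may be technical, and intervals cover no other error. Symbols were matched for 55141 identifiers, and 346 without one held 0.029 to 0.053% of the counts. Levels carry the SD of 3 libraries, log2 fold changes the SE of the fit. Of each gene list the text names the 4 called genes with the largest absolute log2 fold change and a higher group of 10 CPM or more, and Stat2, Batf, Ifng, Spi1 and Tbk1 whatever their values. A few list genes enter the counts but are left out by name. Pkm and the marker genes printed beside a result were chosen after their values were seen. The members, lists and motifs were chosen with earlier results of these data known.

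Equal replicate numbers were checked by correlating residuals of same-numbered libraries. Between IL-2 TCM and IL-2 these were 0.43, 0.4 and 0.68, and between other groups they lay from -0.089 to 0.13. Libraries with different numbers were not correlated. Replicate 3 stood apart in both IL-2 groups, which by itself shifts the residuals of replicates 1 and 2 the same way. The values therefore cannot show that numbers 1 and 2 pair, and the block on the IL-2 libraries assumes pairing. Alternatives were DESeq2 size factors, upper-quartile scaling, no filter, DESeq2 1.42.0, limma 3.58.1 on log2(CPM + 1) and log2(CPM + 0.1), only the groups compared, a replicate block over all libraries or on the IL-2 libraries alone, leaving out the third libraries of both IL-2 groups, and leaving out each library. Scripts were tested on simulated counts. Promoters came from RefSeq (GRCm38.p6), with all 8 members matched.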

Additional observations from a re-analysis of the deposited data

Results flagged for a closer look

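A test of the difference between both TCM effects, the effect within IL-12 minus that within IL-2, was called for Irf7 at 0.67 on the log2 scale. Among the pathway genes it was called for Rigi (0.62), Nfatc2 (0.52), Bcl6 (-0.68), Trim21 (0.43), Isg15 (0.99), Oasl2 (1.57) and Zbp1 (0.68). Rigi had 92.6, 86.3 and 88.1 CPM in IL-12 TCM cells and 65.5, 62.1 and 66.0 CPM in IL-12 cells, against 89.9, 89.8 and 82.2 CPM in IL-2 TCM cells and 95.1, 101 and 91.4 CPM in IL-2 cells. Bcl6 had 25.9, 27.8 and 28.9 CPM in IL-12 TCM cells and 23.0, 22.7 and 22.4 CPM in IL-12 cells, against 22.0, 20.7 and 22.3 CPM in IL-2 TCM cells and 11.3, 9.93 and 11.6 CPM in IL-2 cells, so its TCM effect was the larger one in IL-2. Zbp1, a sensor of Z-form nucleic acids, had 137, 150 and 136 CPM in IL-12 TCM cells and 100, 104 and 102 CPM in IL-12 cells, against 80.2, 84.6 and 75.1 CPM in IL-2 TCM cells and 80.4, 90.0 and 102 CPM in IL-2 cells. Trim21 and Isg15 lost the call in 10 and 9 of 21 alternatives, all of which left out a library.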

How the results depend on the processing

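No member that was called changed direction in any of the 22 alternatives. Of 872 recomputed member values, 792 kept direction and side of the threshold, 48 gained a call, 5 lost one and 27 changed sign. The number of members called for TCM within IL-2 was 1 as reported, 2 without the filter, 2 with a replicate block over all libraries, 3 with a replicate block on the IL-2 libraries, 2 without the third libraries of both IL-2 groups, and 1 to 2 with single libraries left out. For TCM within IL-12 it was 2, and 5 with only the 2 groups, with a replicate block on the IL-2 libraries and without the third libraries, and 1 to 3 with single libraries left out. For the difference of TCM effects it was 1, and 2 without the filter, 2 in DESeq2, 4 with a replicate block on the IL-2 libraries, 5 without the third libraries and 1 to 2 with single libraries left out. For IL-12 against IL-2 it stayed within 1.5 times the main count. Over all genes, TCM within IL-2 gave 2313 calls, 587 with 2 groups, 4442 with that block, 3936 without the third libraries, and 1292 and 1432 without IL-2 replicates 1 and 2. TCM within IL-12 gave 4617 calls, 7133 with 2 groups, 7332 without the third libraries, 2931 without IL-12 replicate 1 and 3067 without IL-12 TCM replicate 3. The difference gave 251 calls, 779 without the filter, 550 in DESeq2, 1668 with the block, 2105 without the third libraries and 105 to 1164 with single libraries left out. The replicate block over all libraries changed only the calls of Irf8 for IL-12 TCM over IL-2 TCM, given above, and for TCM within IL-2 (0.56, adjusted p = 0.024) and of Irf9 for TCM within IL-12 (0.14, 0.043). The replicate block on the IL-2 libraries assumes that equal numbers pair. Beside the calls already given, it called Irf5 (0.53, 0.00093), Irf8 (-0.16, 0.028) and Irf9 (0.14, 0.023) for TCM within IL-12. It also called Irf2 (0.13, 0.033) for IL-12 over IL-2, Irf3 (0.15, 0.034) for IL-12 TCM over IL-2 TCM, and Irf8 (-0.70, 5.1e-06) and Irf9 (0.25, 0.019) for the difference. It changed no other call of a member.

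Sign changes concerned uncalled values, of which the Irf5 difference of TCM effects, 0.28, was the one furthest from 0. Irf1, TCM within IL-2, was -0.10 without the third libraries and -0.0447 to 0.1 with single libraries left out. Irf4 there was -0.0921 to 0.0498. With single libraries left out, Irf3 and Irf7, TCM within IL-12, were -0.0202 to 0.0768 and -0.0174 to 0.0786. Irf4, IL-12 over IL-2, was -0.0638 under upper-quartile scaling, -0.0414 without the third libraries and -0.0398 to 0.08 with single libraries left out. Irf2, IL-12 TCM over IL-2 TCM, was -0.0365, -0.08 and -0.0771 to 0.0906 under the same settings. For the difference of TCM effects, Irf1 was -0.0089 without the filter, -0.0093 in limma with either pseudocount and -0.0782 to 0.068 with single libraries left out and Irf5 was -0.0309 to 0.513. The cause of these changes was not tested. Irf5 has the fewest counts of the members, which limits its precision.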
